A study of Mus musculus with 19 samples.

Results

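Gene expression was compared between mouse embryonic stem cells (ESCs) kept in a2i/L and the same 2 ESC lines kept in S/L. The comparison rests on 4 of the 19 RNA-seq libraries of the series, chosen by their labels: a2i/L at passage 10 (lines J-34 and J-35) and S/L at passage 10 (lines J-34 and J-35). All 12942 genes of the deposited expression table were tested. Both lines are male. In every group, cells at passage 4 were grown for 6 passages in the named medium on mouse embryonic fibroblast (MEF) feeders, so that feeder contact was shared by a2i/L and S/L cells, and were sorted for the surface marker SSEA1 before RNA extraction. Each line and medium gave 1 library, and nothing in the labels says that cultures were repeated within a line. A p-value therefore measures the spread between lines and libraries, which may be partly technical. For a comparison with the most similar media, 2i/L at passage 10 (J-34 and J-35) and PKCi/L at passage 10 (titled J-34 and J-37, the second with a growth label that names J-35) were used.

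The labels do not spell out the media. In the field, S/L is serum with leukaemia inhibitory factor (LIF), the cytokine that signals through Stat3, and 2i/L combines LIF with an inhibitor of Mek, the kinase upstream of Erk, and an inhibitor of Gsk3, whose block stabilises beta-catenin and so activates Wnt target genes. The name a2i stands for an alternative 2i in which the Gsk3 inhibitor is kept and an inhibitor of Src-family kinases takes the place of the Mek inhibitor, and PKCi is an inhibitor of protein kinase C. ESCs in serum are a mixture in which FGF and Erk signalling, serum factors and matrix attachment act together, and the inhibitor media are known to hold ESCs closer to the naive state of the early embryo. Whether the basal medium also differed between a2i/L and S/L is not given in the sources used here, so the inhibitors and any change of serum or base medium cannot be told apart.

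Values are CPM, read counts scaled to the library total, as the authors deposited them, and pairs of values are given as J-34 and J-35. Differences are on the log2(CPM + 0.5) scale, a2i/L minus S/L, so that 1 unit is a 2-fold difference, positive values are higher in a2i/L, and changes of genes with few reads are understated. Errors are standard errors (SE) of the fit, with n = 2 libraries per group, and a gene is said to have risen or fallen where the limma test gave a Benjamini-Hochberg adjusted p below 0.05 over all 12942 genes. In bulk RNA, fewer cells of a type and less RNA per cell cannot be told apart.

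In a2i/L, 1381 genes were higher than in S/L, which is 10.7% of the genes tested, and 2236 were lower, which is 17.3%. Either direction made 27.9%. Counts for gene lists in a2i/L against S/L below are to be read beside these shares. At least 2-fold changes were seen for 455 higher genes (3.52%) and 552 lower genes (4.27%), and at least 4-fold changes for 86 and 73. The median difference over all genes was −0.09. With TMM library scaling in place of the deposited CPM, that median moved to 0.00 and the calls to 2423 higher and 2359 lower, so that higher genes made 50.7% of the calls, against 38.2% without it. No gene called in both turned its direction. The share of lower genes thus depends on the scaling, and changes smaller than about this shift are read with that limit.

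The differences between a2i/L and S/L in J-34 and those in J-35 correlated at r = 0.80 across the 12942 genes, which are not independent replicates, and 6158 of the 9325 genes that were not called had the same sign in both lines. Of the 3617 called genes, 3610 had the same sign and 3603 had groups that did not overlap, which the call itself favours; over all genes tested, a2i/L lay above S/L without overlap for 3417 genes (26.4%) and below it for 5393 (41.7%). The log2 values of the a2i/L libraries correlated with each other at r = 0.991 and those of the S/L libraries at 0.993, against 0.954 to 0.960 between media, across genes of single libraries. Sequencing depth, read from the smallest CPM steps, was about 44500000 and 35000000 reads in a2i/L and 34700000 and 38400000 in S/L, so that 1 read was worth 0.0225 and 0.0286 CPM in a2i/L and 0.0288 and 0.026 CPM in S/L. The a2i/L J-35 library stood apart in 7 called features. Lars2, a mitochondrial leucyl-tRNA synthetase gene, had 76.7 and 3797 CPM in a2i/L, against 56.9 and 118 CPM in S/L. Mir5102, Mir5105, mmu-mir-2134-4, mmu-mir-689-2, Gm15564 and n-R5-8s1 were also high in that library alone among the 4 compared. Apart from the counts no result below uses these features. Elsewhere in the series, Lars2 had 687 and 200 CPM in PKCi/L. It had 14870 to 29548 CPM in the libraries of passages 20 and 23, which enter the fit that gives the errors. Median differences by chromosome, over the 6723 placed genes that averaged 10 CPM or more, lay between −0.16 (chromosome 17) and 0.06 (chromosome 13) in J-34 and between −0.18 (chromosome 8) and 0.00 (chromosome 3) in J-35; among genes averaging 50 CPM or more, chromosome 13 stood at 0.29 in J-34 and 0.09 in J-35. Pou5f1, the gene for Oct4, had 437 and 406 CPM in a2i/L and 519 and 554 CPM in S/L, and of 9 measured genes that mark ESCs 1 rose and 2 fell.

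**Figure D1:**
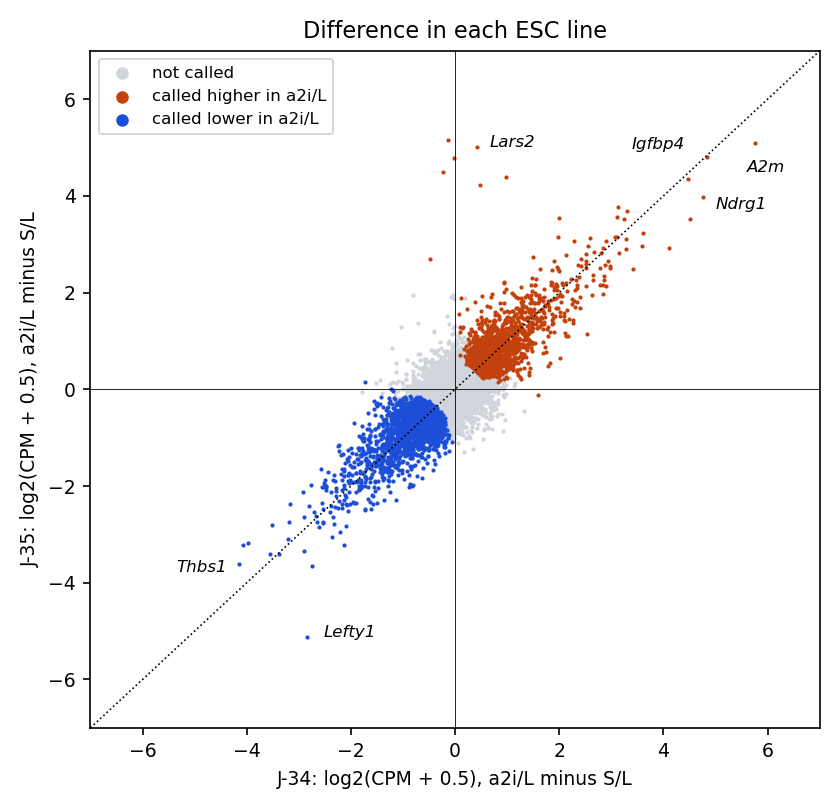
Each point is 1 of the 12942 genes, with the log2(CPM + 0.5) difference of a2i/L minus S/L in line J-34 on the x axis and in line J-35 on the y axis; colours mark genes called higher, called lower or not called by limma. Called genes lie near the dotted line of equal differences, except the features high in a2i/L J-35 alone (Lars2 is named) and Lefty1, which was lower in both lines, at −2.84 and −5.13.

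Genes of the response to low oxygen rose almost throughout. Cells sense oxygen through prolyl hydroxylases of the Egln family, which mark hypoxia-inducible factor (HIF) for loss; when they are inactive, HIF binds sites that contain ACGTG and raises genes for glycolysis, angiogenesis and mitochondrial turnover. Of 17 measured genes of this response, chosen apart from the glycolytic enzymes, 16 rose and 0 fell, with a median difference of 2.04, beside 10.7% of all genes that rose. Ndrg1, a stress-responsive gene, stood at 60.8 and 64.1 CPM in a2i/L, against 1.76 and 3.59 CPM in S/L (4.37 ± 0.20, limma adjusted p = 2.13e-18). Bnip3, which marks mitochondria for removal, had 164 and 149 CPM in a2i/L and 9.05 and 19.3 CPM in S/L (3.51 ± 0.22, limma adjusted p = 9.01e-15). The lowest a2i/L value of either gene was several times its highest S/L value.

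Of the Egln oxygen sensors, Egln1 and Egln3 rose and Egln2, which was not on the list, fell. Egln3 had 40.9 and 36.2 CPM in a2i/L, against 3.37 and 6.01 CPM in S/L (2.96 ± 0.20, limma adjusted p = 7.84e-14), and Egln1 had 64.5 and 63.3 CPM, against 12.4 and 14.4 CPM (2.22 ± 0.16). Both are known HIF targets that act back on HIF. Egln2 had 17.4 and 14.98 CPM in a2i/L and 23.5 and 22.1 CPM in S/L (limma adjusted p = 0.0343), a call lost without S/L J-34, S/L J-35 or a2i/L J-35. P4ha1, a collagen prolyl hydroxylase, had 156 and 173 CPM in a2i/L and 19.97 and 27.1 CPM in S/L (2.79 ± 0.17), and its partner P4ha2 24.6 and 24.96 CPM, against 7.93 and 9.03 CPM (1.49 ± 0.18). Vegfa, the angiogenic growth factor, had 66.5 and 76.6 CPM in a2i/L and 27.1 and 23.7 CPM in S/L (1.47 ± 0.15). Smaller rises were those of Kdm3a, a histone demethylase (1.04 ± 0.19), and Higd1a, a mitochondrial protein (1.21 ± 0.17). The only measured member that did not pass was Mxi1, at 14.4 and 17.6 CPM in a2i/L and 12.6 and 14.6 CPM in S/L (limma adjusted p = 0.376). Ndufa4l2, a mitochondrial protein gene that was not on the list and is also known as a HIF target, was among the 15 largest rises, with 34.8 and 34.7 CPM in a2i/L and 1.04 and 2.55 CPM in S/L (4.02 ± 0.24).

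Genes for glucose uptake and for every enzymatic step of glycolysis rose together. Of 19 measured genes, 18 rose and 0 fell, with a median of 1.44. Among transporters, Slc2a1, which carries glucose, had 480.0 and 517 CPM in a2i/L and 118 and 171 CPM in S/L (1.80 ± 0.18), and Slc16a3, which exports lactate, had 112 and 117 CPM, against 8.91 and 14.6 CPM (3.27 ± 0.23, limma adjusted p = 8.73e-14). Ldha, which makes lactate, had 1242 and 1049 CPM in a2i/L, against 166 and 240.0 CPM in S/L (2.51 ± 0.19, limma adjusted p = 5.67e-13). These 3 genes ran from supply of the sugar to export of its product, and each had non-overlapping groups.

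The enzymes in between followed. Aldoc, an aldolase isoform, had 87.1 and 86.7 CPM in a2i/L and 10.6 and 14.4 CPM in S/L (2.76 ± 0.18). Pfkp and Pfkl, the phosphofructokinases of the committed step, rose by 2.18 and 1.83, while the muscle form Pfkm, at 41.5 and 44.6 CPM in a2i/L and 38.7 and 40.96 CPM in S/L, was the only member that did not pass (limma adjusted p = 0.631). Pgk1, the phosphoglycerate kinase, had 428 and 361 CPM in a2i/L and 80.6 and 111 CPM in S/L (2.05 ± 0.18). Hexokinases Hk1 and Hk2 rose by 1.32 and 0.85. The smallest changes that passed were those of Gapdh (0.73 ± 0.18), with 741 and 702 CPM in a2i/L and 399 and 470.4 CPM in S/L, and of Pdk1, the kinase that keeps pyruvate out of mitochondria, with 221 and 180.1 CPM in a2i/L and 133 and 141 CPM in S/L (0.54 ± 0.16); the call of Pdk1 was lost without the J-34 library of either medium. Within S/L, J-34 was the lower library for most of these genes, and the number of members that rose stayed at 17 or 18 whichever single library was left out. Several of these enzymes, Gapdh, Ldha, Pgk1 and Aldoa among them, have processed copies elsewhere in the mouse genome, and how reads that match several copies were counted is not given in the sources used here.

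**Figure D2:**
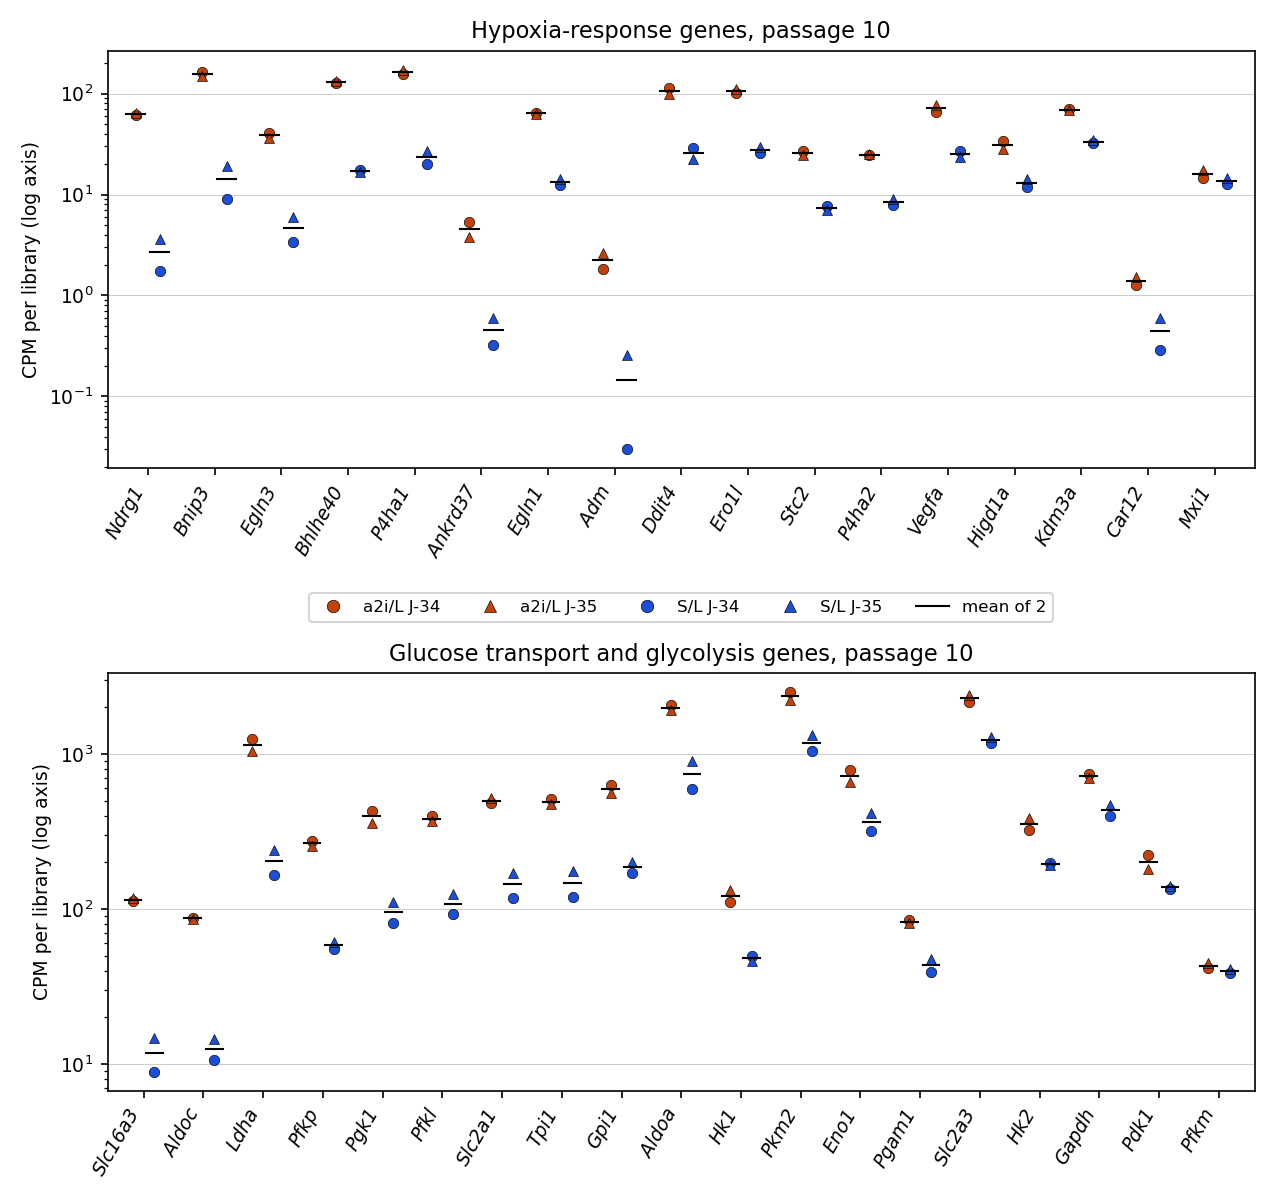
CPM per library (log axis) of the 17 measured hypoxia-response genes (top) and the 19 glucose transport and glycolysis genes (bottom), ordered by their difference; orange points are a2i/L, blue points S/L, circles J-34, triangles J-35, and bars the mean of 2 libraries. Orange lies above blue without overlap for 16 of 17 genes in the top panel and for 19 of 19 in the bottom panel.

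Promoter sequences of 4 of these genes are shown because each holds the HIF core motif close to the transcription start. They are the 250 bases before the start in the RefSeq annotation of GRCm38.p6, a later build than that of the authors' reads, printed on the strand of the gene with ACGTG, or CACGT where the motif lies on the opposite strand, in capitals. Bnip3 lies at chr7:138909507-138909756 on the minus strand, where the capitals CACGTG are overlapping matches of both strands; Slc16a3 at chr11:120948817-120949066 on the plus strand; Pgk1 at chrX:106186850-106187099 on the plus strand; and P4ha1 at chr10:59323046-59323295 on the plus strand.
Bnip3: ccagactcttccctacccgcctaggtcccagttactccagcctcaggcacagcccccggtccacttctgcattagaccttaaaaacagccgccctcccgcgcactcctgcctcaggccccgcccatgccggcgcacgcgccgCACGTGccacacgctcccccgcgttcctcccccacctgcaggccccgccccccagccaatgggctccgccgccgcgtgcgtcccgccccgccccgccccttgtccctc
Slc16a3: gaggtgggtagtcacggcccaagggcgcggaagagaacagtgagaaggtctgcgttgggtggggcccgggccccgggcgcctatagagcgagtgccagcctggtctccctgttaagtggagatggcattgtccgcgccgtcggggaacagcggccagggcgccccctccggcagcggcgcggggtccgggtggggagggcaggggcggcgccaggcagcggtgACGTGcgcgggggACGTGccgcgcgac
Pgk1: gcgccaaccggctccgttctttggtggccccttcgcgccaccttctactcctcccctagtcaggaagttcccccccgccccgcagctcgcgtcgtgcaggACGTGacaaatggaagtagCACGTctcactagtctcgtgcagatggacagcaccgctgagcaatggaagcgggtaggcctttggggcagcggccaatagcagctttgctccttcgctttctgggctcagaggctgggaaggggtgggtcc
P4ha1: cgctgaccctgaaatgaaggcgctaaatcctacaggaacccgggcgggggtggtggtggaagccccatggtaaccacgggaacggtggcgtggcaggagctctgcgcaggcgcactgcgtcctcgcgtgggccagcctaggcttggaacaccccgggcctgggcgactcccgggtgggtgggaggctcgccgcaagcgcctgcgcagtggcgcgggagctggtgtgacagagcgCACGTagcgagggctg

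The motif began 108 and 107 bases before the start in Bnip3, 27 and 14 in Slc16a3, 150 and 131 in Pgk1, and 16 in P4ha1. A promoter could be matched by symbol for 8950 of the 12942 genes, for 14 of the 17 hypoxia genes and for 17 of the 19 glycolysis genes. ACGTG on either strand was present in 7 of 14 hypoxia promoters (50%) and 7 of 17 glycolysis promoters (41.2%), beside 2019 of all 8950 (22.6%). Among called genes it was in 244 of 951 promoters of genes that were higher (25.7%), 314 of 1580 of genes that were lower (19.9%) and 22.8% of the promoters of genes not called, and in 92 of 303 promoters (30.4%) of genes at least 2-fold higher. A match of 5 letters is a description of the sequence and no evidence of binding.

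Wnt target genes rose in part. Of 15 measured targets, 7 rose, 1 fell and 7 did not pass, beside 10.7% and 17.3% of all genes that rose and fell, with a median of 0.70. Cdx1, a homeobox gene that beta-catenin activates directly, had 38.6 and 35.6 CPM in a2i/L, against 3.63 and 2.65 CPM in S/L (3.38 ± 0.20, limma adjusted p = 1.76e-15). Axin2, the feedback inhibitor of the pathway, had 18.7 and 16.5 CPM in a2i/L and 5.3 and 4.61 CPM in S/L (1.73 ± 0.20, limma adjusted p = 1.41e-08). For both genes the a2i/L and S/L libraries lay far apart.

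Lef1, a nuclear partner of beta-catenin, had 4 and 2.97 CPM in a2i/L and 0.12 and 0.18 CPM in S/L (2.61 ± 0.25). Sp5, a zinc-finger factor under Wnt control, had 1.64 and 0.97 CPM, against 0.09 and 0.08 CPM (1.60 ± 0.23). Rnf43, an enzyme that removes Frizzled receptors, and Tnfrsf19, a receptor, rose by 1.71 and 1.41. Apcdd1, a Wnt inhibitor, was the member that fell, by 0.80, and it lost its call without S/L J-35 or a2i/L J-34. Of the 9 targets with a matched promoter, only Sp5 held the letters CTTTGAT or CTTTGAA, which 5.12% of all 8950 promoters hold.

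Tested directly against 2i/L, which shares the Gsk3 inhibitor, 1 of the 15 targets was higher and 8 were lower in a2i/L. In all, 11.8% of genes were higher and 23.9% lower in that comparison. Cdx2, among those 8, had 0.04 and 0 CPM in a2i/L and 2.64 and 2.83 CPM in 2i/L. It was at most 0.05 CPM in S/L and PKCi/L at passage 10, so that its 2i/L level favoured its being listed. Sp5 had 1.64 and 0.97 CPM in a2i/L and 18.9 and 19.3 CPM in 2i/L (−3.46 ± 0.23, limma adjusted p = 2.99e-14). Axin2 had 18.7 and 16.5 CPM in a2i/L and 32.9 and 34.9 CPM in 2i/L (−0.93 ± 0.20), and Tnfrsf19 6.52 and 8.06 CPM, against 69.8 and 61.8 CPM (−3.09 ± 0.23). Cdx1 was nearly as high in 2i/L, at 30.97 and 35.2 CPM, and its difference of 0.17 ± 0.20 did not pass (limma adjusted p = 0.554). Against PKCi/L, 8 targets were higher and 2 lower in a2i/L, where 21.5% of all genes were higher and 10.1% lower. Cdx1 was 0.94 and 0.68 CPM in the PKCi/L libraries (4.85 ± 0.20 for a2i/L over PKCi/L, limma adjusted p = 9.24e-20). Lef1 went the other way, with 24.6 and 14.8 CPM in PKCi/L (−2.31 ± 0.25 for a2i/L over PKCi/L, limma adjusted p = 4.33e-09).

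Components of the Wnt pathway passed the test about as often as all genes did. Of 21 measured, 1 rose and 5 fell, beside 10.7% and 17.3% of all genes, or 27.9% in either direction. Ctnnb1, the beta-catenin gene, had 372 and 374 CPM in a2i/L and 459.6 and 472 CPM in S/L (limma adjusted p = 0.123), and Gsk3b, the kinase that the inhibitor targets, 36.4 and 37.6 CPM and 30.1 and 29.2 CPM; it did not pass (limma adjusted p = 0.102), but did with TMM scaling (difference 0.41, adjusted p = 0.0055). The ligand gene Wnt7b fell most, to 0.02 and 0.57 CPM in a2i/L, against 5.45 and 6.95 CPM in S/L (limma adjusted p = 4.36e-11). Fzd2, a receptor, had 0.72 and 1.34 CPM in a2i/L and 3.46 and 4.63 CPM in S/L (−1.59 ± 0.23).

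Src-family kinases and their substrates moved in both directions. Of 20 measured genes, 4 rose and 5 fell, beside 10.7% and 17.3% of all genes, with a median of −0.27. Src had 54.2 and 57.2 CPM in a2i/L and 37.3 and 38.3 CPM in S/L (0.55 ± 0.16, limma adjusted p = 0.00757), a call that was lost without S/L J-34 (0.53, adjusted p = 0.0577) or without a2i/L J-35 (0.51, adjusted p = 0.0692). Pag1, the membrane adaptor that recruits the Src-inhibiting kinase Csk, had 3.44 and 3.23 CPM in a2i/L and 1.33 and 0.88 CPM in S/L (1.27 ± 0.22). Among adhesion substrates, Tln1 (talin) fell by 0.88, to 66.8 and 75.7 CPM in a2i/L, against 136 and 126 CPM in S/L, and Bcar1 (p130Cas) fell by 0.76. Leaving out S/L J-34 or a2i/L J-35 reduced the genes that rose to 2, a share close to that of all genes.

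Targets of Erk signalling fell in part, while Fos, Egr1 and Ier3 rose. Erk output is read from feedback inhibitors of the Sprouty and Dusp families and from the ETS factors Etv4 and Etv5, while Fos and Egr1 respond within minutes to many stimuli. Of 18 measured Erk targets, 4 rose and 11 fell, with a median of −0.68. Spry4 had 32.98 and 19.9 CPM in a2i/L, against 79.4 and 88.5 CPM in S/L (−1.69 ± 0.22, limma adjusted p = 2.38e-07). Dusp6, the phosphatase that removes Erk's activating phosphates, had 24.98 and 18.1 CPM in a2i/L and 61.9 and 67.3 CPM in S/L (−1.58 ± 0.19, limma adjusted p = 5.49e-08). Both stayed well above the level in 2i/L, the medium with the Mek inhibitor, where Spry4 stood at 0.2 and 0.11 CPM and Dusp6 at 3.1 and 3.3 CPM.

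Etv4 had 25.6 and 22.4 CPM in a2i/L and 90.1 and 91.8 CPM in S/L (−1.90 ± 0.21), whereas Etv5 rose, at 129.7 and 127 CPM in a2i/L, against 77.9 and 88.4 CPM in S/L (0.63 ± 0.15). Dusp4 fell by 1.63 and Spred1, a Ras pathway inhibitor, by 0.85. Myc, which Erk and Stat3 both act on, had 0.36 and 0.06 CPM in a2i/L, against 2.36 and 2.68 CPM in S/L (−2.12 ± 0.26). The sister gene Mycn, far better expressed, was lower as well, with 20.7 and 15.2 CPM in a2i/L and 34.1 and 43.4 CPM in S/L (−1.09 ± 0.21).

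Egr1 and Fos went the other way. Fos had 15.3 and 11.7 CPM in a2i/L, against 2.77 and 2.94 CPM in S/L (2.05 ± 0.27, limma adjusted p = 1.75e-07), and Egr1 5.4 and 3.72 CPM, against 1.79 and 1.51 CPM (1.22 ± 0.24, limma adjusted p = 0.000198). Ier3, a stress-responsive Erk pathway gene, had 10.3 and 9.75 CPM in a2i/L and 1.07 and 1.8 CPM in S/L (2.47 ± 0.24). Of 11 further immediate early genes, 5 rose and 3 fell: Maff (1.35 ± 0.20) and Jun (0.89 ± 0.20) were among the rises. That count was less firm, with 2 rises without S/L J-34, 3 without a2i/L J-34, 1 fall without S/L J-34 and 0 falls without S/L J-35 or a2i/L J-35.

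Against 2i/L, 9 of the 18 Erk targets were higher and 2 lower in a2i/L, beside 11.8% and 23.9% of all genes. Of the 11 immediate early genes, 7 were higher and 1 lower. Spry4 gave the largest rise of all genes in that comparison (5.32 ± 0.22, limma adjusted p = 1.55e-19), and Dusp6 differed by 2.56 ± 0.19. Fos had 15.3 and 11.7 CPM in a2i/L and 1.76 and 2.29 CPM in 2i/L (2.47 ± 0.27, limma adjusted p = 2.12e-09). Against PKCi/L, 4 of the 18 Erk targets were higher and 6 lower in a2i/L, beside 21.5% and 10.1% of all genes. Of these, Spry4 had 72.1 and 52.2 CPM in PKCi/L (−1.24 ± 0.22 for a2i/L over PKCi/L) and Dusp6 had 57.99 and 54 CPM there (−1.38 ± 0.19).

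**Figure D3:**
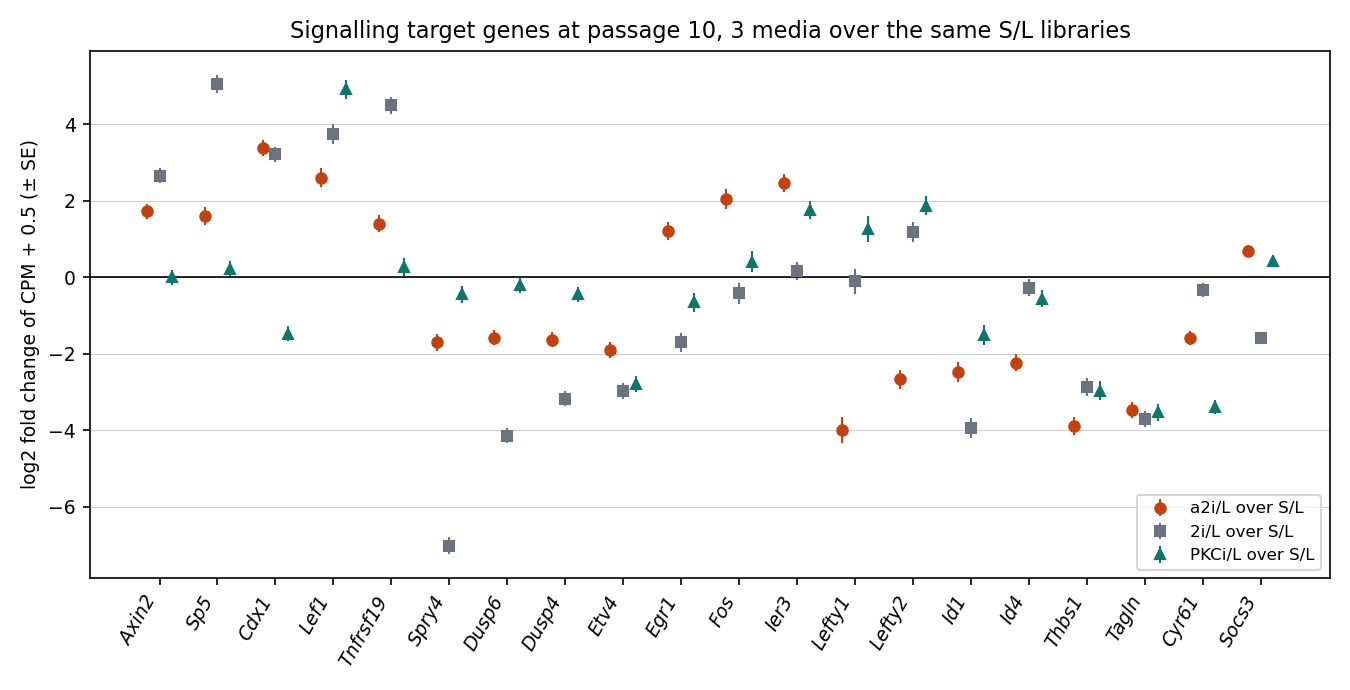
Log2 difference of CPM + 0.5 (± SE of the limma fit) for 20 signalling target genes in a2i/L (orange circles), 2i/L (grey squares) and PKCi/L (green triangles), each over the same S/L J-34 and J-35 libraries, so that the 3 series share their S/L values. Spry4 stands at −1.69 in a2i/L and −7.01 in 2i/L, and Lefty1 at −3.98 in a2i/L and 1.26 in PKCi/L.

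The Nodal antagonists Lefty1 and Lefty2 fell steeply. Nodal and activin signal through Smad3 and its partners, and Lefty1 and Lefty2 are secreted Nodal antagonists that the pathway switches on. Of 14 measured genes, 4 rose and 6 fell, with a median of −0.56. Lefty1, the largest fall of all genes, had 1.44 and 0.14 CPM in a2i/L, against 13.4 and 21.9 CPM in S/L (−3.98 ± 0.34, limma adjusted p = 1.27e-11), and Lefty2 had 0.99 and 0.31 CPM, against 6 and 7 CPM (−2.67 ± 0.25, limma adjusted p = 2.14e-10). In both genes a2i/L J-35 was the lowest of the 4 libraries.

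Smad7, the inhibitory Smad, had 49.7 and 42.04 CPM in a2i/L and 90.4 and 101 CPM in S/L (−1.06 ± 0.15), and the ligand gene Nodal 20.9 and 20.1 CPM, against 31.2 and 34.5 CPM (−0.67 ± 0.14). Inhbb, an activin subunit, fell by 1.14. The 4 genes that rose, Skil, Smad3, Tdgf1 and Acvr1b, did so by 0.44 to 0.58, and leaving out a2i/L J-35 left 0 of them; 2 passed without S/L J-34 and 2 without S/L J-35. Lefty1 was not low in the other inhibitor media, with 17.1 and 14.8 CPM in 2i/L (−3.88 ± 0.34 for a2i/L over 2i/L, limma adjusted p = 1.4e-11) and 44.6 and 39.1 CPM in PKCi/L (−5.25 ± 0.34 for a2i/L over PKCi/L, limma adjusted p = 9.79e-15). It was the largest fall of all genes in a2i/L over PKCi/L, followed by Lefty2 (−4.54 ± 0.25).

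Id genes, the textbook targets of BMP and of serum, were low in a2i/L. Id1 had 2.29 and 1.17 CPM in a2i/L, against 11.5 and 11.3 CPM in S/L (−2.46 ± 0.26, limma adjusted p = 2.54e-09). Id2, Id3 and Id4 fell by 1.83, 1.20 and 2.23. Of 11 measured BMP pathway genes 2 rose and 4 fell, and those 4 were the Id genes. Bmp7, a ligand, rose, with 16.98 and 21.7 CPM in a2i/L and 7.15 and 6.45 CPM in S/L (1.43 ± 0.25), while Bmp4, at 5.64 and 5.75 CPM and 5.91 and 7.29 CPM, did not pass (limma adjusted p = 0.587). The other gene that rose, the receptor Bmpr1a, lost its call without S/L J-34, S/L J-35 or a2i/L J-35.

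LIF pathway genes were mixed, with 3 of 12 higher and 4 lower. Socs3, the feedback inhibitor induced by Stat3, had 113 and 104 CPM in a2i/L and 63.1 and 71.2 CPM in S/L (0.69 ± 0.16, limma adjusted p = 0.00103), whereas Socs2 had 13.04 and 12.9 CPM in a2i/L and 23.5 and 27.9 CPM in S/L (−0.96 ± 0.17). In the FGF list, 2 of 11 rose and 5 fell. Fgf4, the ligand that ESCs themselves make, had 108 and 139.9 CPM in a2i/L and 124 and 152 CPM in S/L and did not pass (limma adjusted p = 0.472). Fgfr1, the main receptor in ESCs, had 19.8 and 17.7 CPM in a2i/L and 29.9 and 27.6 CPM in S/L (−0.61 ± 0.15), and Fgfr2 fell by 1.71.

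Core pluripotency factors did not pass the test. Nanog had 293 and 291 CPM in a2i/L and 277 and 282 CPM in S/L (0.07 ± 0.15, limma adjusted p = 0.787). Sox2 had 190.2 and 182 CPM in a2i/L and 176 and 197 CPM in S/L, with a difference of 0.00 ± 0.15. Pou5f1 differed by −0.35 ± 0.17 (limma adjusted p = 0.128) and passed in a fit of the passage 7 and 10 libraries alone (adjusted p = 0.0242). These 3 genes define the pluripotent state, and a missed threshold does not show that their levels were equal.

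Among 15 measured naive factors, 4 rose and 3 fell, beside 10.7% and 17.3% of all genes, with a median of −0.16. Tfcp2l1, a factor of the ground-state network, had 676 and 767 CPM in a2i/L, against 397 and 328 CPM in S/L (0.99 ± 0.18, limma adjusted p = 3.67e-05), and Nr5a2, a nuclear receptor that activates Oct4, 37.5 and 39.5 CPM, against 20.6 and 20.8 CPM (0.88 ± 0.18). Smaller rises of Klf4 (0.54 ± 0.14) and Klf2 (0.69 ± 0.21) depended on single libraries: without S/L J-34 they were 0.46 (adjusted p = 0.0731) and 0.59 (adjusted p = 0.123), leaving 2 rises in the list, and Klf2 also lost its call without a2i/L J-35 (0.62, adjusted p = 0.104). Nr0b1 (Dax1) fell, with 28.3 and 23.1 CPM in a2i/L and 83.3 and 101 CPM in S/L (−1.82 ± 0.20, limma adjusted p = 4.29e-09). Zfp42 (Rex1) had 107 and 86.4 CPM in a2i/L and 151 and 145 CPM in S/L (−0.62 ± 0.17), a call lost without a2i/L J-35 (−0.47, adjusted p = 0.112); without that library, 1 naive gene fell. Esrrb, at 379.8 and 402 CPM in a2i/L and 324 and 344 CPM in S/L, did not pass (limma adjusted p = 0.284), except with TMM scaling (0.32, adjusted p = 0.0070).

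Against 2i/L, 1 naive gene was higher and 7 were lower in a2i/L, beside 11.8% and 23.9% of all genes. Nanog had 293 and 291 CPM in a2i/L and 558 and 535 CPM in 2i/L (−0.90 ± 0.15, limma adjusted p = 1e-05).

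Genes shared by ESCs more broadly, and those of the formative state that follows implantation, fell more often than they rose. Of 12 general pluripotency genes, 0 rose and 5 fell. Utf1, a chromatin factor of undifferentiated cells, had 12.7 and 11.04 CPM in a2i/L and 39.3 and 51.7 CPM in S/L (−1.88 ± 0.19), and Dppa4, a nuclear protein of pluripotent cells, 22.8 and 20.8 CPM, against 56.2 and 58.8 CPM (−1.38 ± 0.15, limma adjusted p = 3.25e-09). Lin28a, which blocks let-7 maturation, had 56.9 and 53.8 CPM in a2i/L and 72.5 and 79.2 CPM in S/L and did not pass (limma adjusted p = 0.179), although it stood at 1.52 and 1.77 CPM in 2i/L (4.70 ± 0.25 for a2i/L over 2i/L).

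Of 9 formative genes, 2 rose and 4 fell. Foxd3 had 1.55 and 1.09 CPM in a2i/L and 8.99 and 11.7 CPM in S/L (−2.58 ± 0.22), and Tcf15 3.98 and 4.58 CPM, against 16.1 and 16.4 CPM (−1.81 ± 0.20). Both are transcription factor genes that mark cells that begin to leave the naive state. Zic2 rose instead, with 14.9 and 13.6 CPM in a2i/L and 4.24 and 5.41 CPM in S/L (1.48 ± 0.19, limma adjusted p = 8.89e-08), and Otx2, at 5.28 and 5.12 CPM and 3.31 and 5.57 CPM, did not pass (limma adjusted p = 0.502). The second rise, of Sox3, was lost without the J-34 library of either medium.

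**Figure D4:**
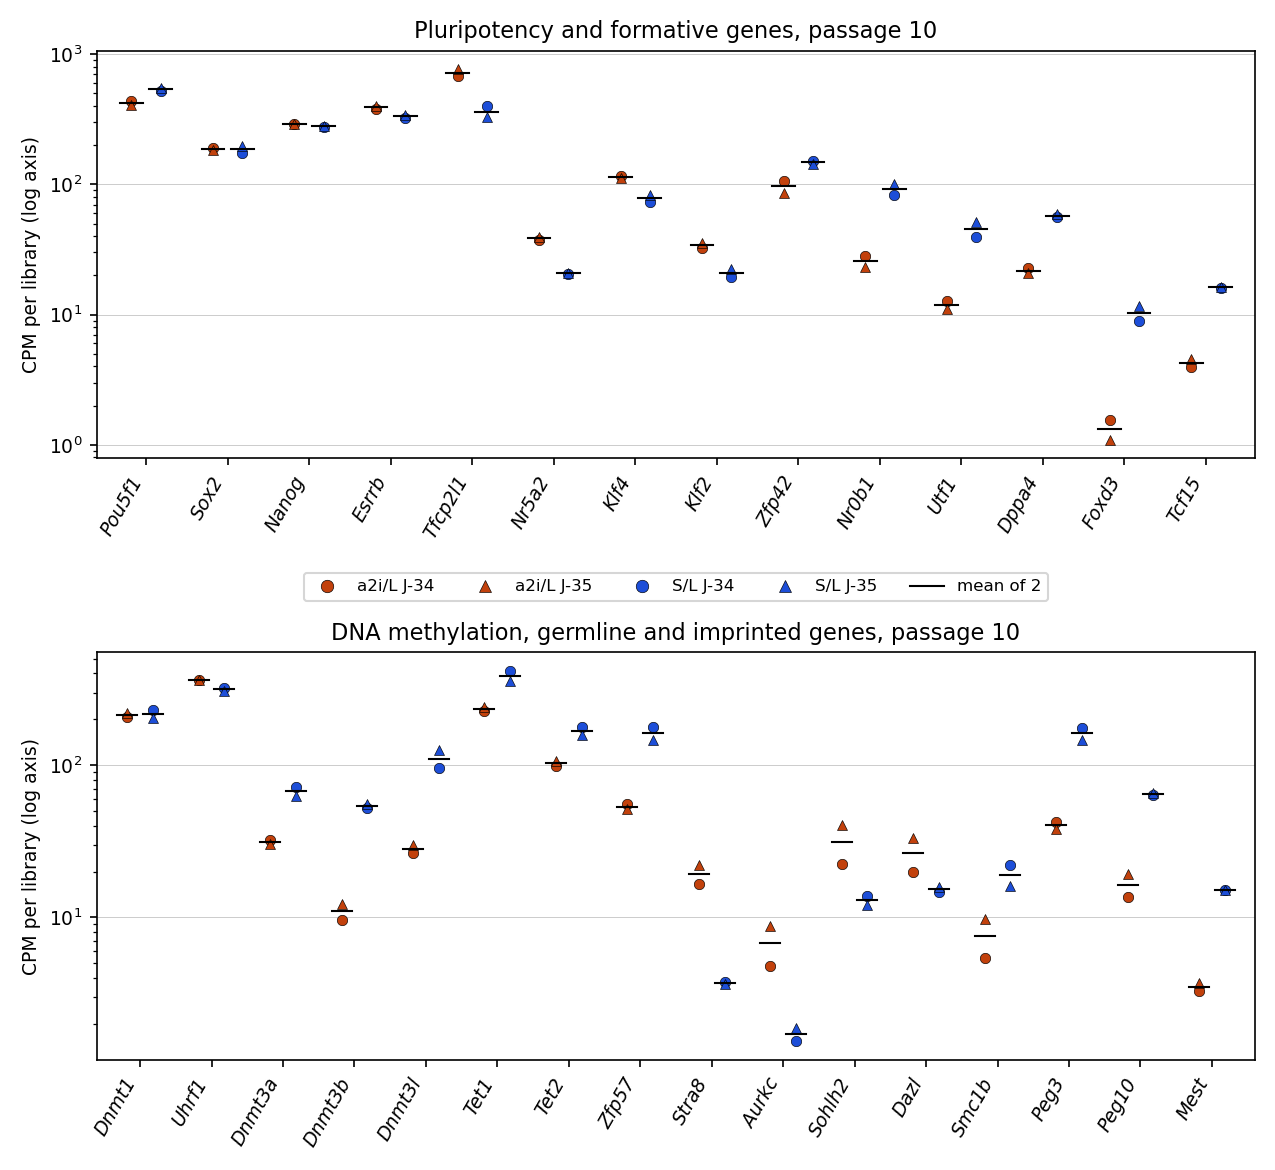
CPM per library (log axis) of pluripotency and formative genes (top) and of DNA methylation, germline and imprinted genes (bottom); orange points are a2i/L, blue points S/L, circles J-34, triangles J-35, and bars the mean of 2 libraries. Pou5f1, Sox2, Nanog, Dnmt1 and Uhrf1 lie close together in both media, while Dnmt3b, Dnmt3l, Zfp57, Peg3, Peg10 and Mest are lower and Stra8 is higher in a2i/L.

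De novo DNA methylation genes fell and maintenance genes did not pass. Of 14 measured genes of DNA methylation and its removal, 0 rose and 7 fell, with a median of −0.48; with TMM scaling 1 gene, Uhrf1, was higher. Dnmt3b had 9.6 and 12.3 CPM in a2i/L, against 51.9 and 55.7 CPM in S/L (−2.25 ± 0.18, limma adjusted p = 2.96e-12), Dnmt3l, its catalytically inactive partner, 26.3 and 29.8 CPM, against 95.3 and 125 CPM (−1.95 ± 0.20, limma adjusted p = 1.83e-09), and Dnmt3a 32.3 and 30.1 CPM, against 71.8 and 62.7 CPM (−1.09 ± 0.18, limma adjusted p = 1.12e-05). Every a2i/L value of these enzymes was below every S/L value.

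Dnmt1, which copies methylation at replication, had 206 and 221 CPM in a2i/L and 229 and 203 CPM in S/L (−0.02 ± 0.15, limma adjusted p = 0.949), and Uhrf1, which guides it, 360.5 and 363 CPM and 323 and 305 CPM (0.20 ± 0.16, limma adjusted p = 0.358). Tet1 and Tet2, which oxidise methylcytosine, fell by 0.71 and 0.70, with Tet1 at 228 and 242 CPM in a2i/L and 416 and 355 CPM in S/L. Zfp57, which protects methylation of imprints, had 55.1 and 51.6 CPM in a2i/L and 178 and 146 CPM in S/L (−1.59 ± 0.16). The 3 Dnmt3 genes were also low in 2i/L. Dnmt3b had 10.7 and 12.7 CPM there, Dnmt3l 3.96 and 3.71 CPM and Dnmt3a 19.5 and 20.9 CPM. In a2i/L over 2i/L, 2 genes of this list were higher and 1 lower, beside 11.8% and 23.9% of all genes. In PKCi/L, Dnmt3b stood at 74.5 and 58.6 CPM.

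Germline genes, many of which are held silent by promoter methylation, rose in part. Of 31 measured, 11 rose and 3 fell, beside 10.7% and 17.3% of all genes, with a median of 0.14. Stra8, which starts meiosis, had 16.4 and 22.2 CPM in a2i/L, against 3.75 and 3.64 CPM in S/L (2.22 ± 0.23, limma adjusted p = 1.09e-09), and Aurkc, a meiotic kinase, 4.77 and 8.72 CPM, against 1.53 and 1.87 CPM (1.67 ± 0.23). Sohlh2, a spermatogonial factor, had 22.6 and 40.3 CPM in a2i/L and 13.9 and 12.1 CPM in S/L (1.19 ± 0.19). In a2i/L, J-35 was above J-34 in 27 of the 31 genes, beside 53.8% of all genes, and in S/L it was in 15 of the 31; the part of this library in the rises was examined only by leaving it out. Dazl, an RNA-binding protein of germ cells, had 19.9 and 33.3 CPM in a2i/L and 14.7 and 15.8 CPM in S/L (0.74 ± 0.23), and lost its call without S/L J-34 (0.69), S/L J-35 (0.79) or a2i/L J-35 (0.37). Without a2i/L J-35, 5 germline genes rose, and without S/L J-35 6. Smc1b, a meiotic cohesin subunit, fell, with 5.4 and 9.75 CPM in a2i/L and 22.1 and 16.1 CPM in S/L (−1.31 ± 0.23). Direct comparison gave 13 germline genes higher and 14 lower in a2i/L than in 2i/L, beside 11.8% and 23.9% of all genes. Relative to PKCi/L, 24 were higher and 0 lower in a2i/L, beside 21.5% and 10.1% of all genes.

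Imprinted genes moved in both directions. Of 23 paternally expressed genes measured, 4 rose and 9 fell. Peg3 had 42.6 and 38.1 CPM in a2i/L and 176 and 147 CPM in S/L (−1.99 ± 0.16, limma adjusted p = 6.76e-12), Peg10 13.5 and 19.3 CPM, against 63.6 and 65.8 CPM (−1.97 ± 0.16), and Mest 3.28 and 3.72 CPM, against 15.2 and 15.2 CPM (−1.97 ± 0.20). The falls covered genes of different imprinted clusters. Plagl1 and Slc38a4 rose by 1.08 and 0.96. Of 17 maternally expressed genes 3 rose and 4 fell, beside 10.7% and 17.3% of all genes. Cdkn1c, an inhibitor of the cell cycle, had 2.09 and 1.92 CPM in a2i/L and 4.78 and 6.35 CPM in S/L (−1.26 ± 0.25). H19 had 3.28 and 1.43 CPM in a2i/L and 4.04 and 3.57 CPM in S/L and did not pass (−0.67 ± 0.28, limma adjusted p = 0.0711), but passed with the line as a block (adjusted p = 0.0348). Its neighbour Igf2 was low in both media, with 0.45 and 0.14 CPM in a2i/L and 1.93 and 1.51 CPM in S/L, and fell (limma adjusted p = 5.54e-05).

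Target genes of SRF and YAP fell almost throughout. Serum response factor (SRF) and its cofactor follow actin assembly, and YAP follows attachment and stretch. Of 19 measured targets, 0 rose and 15 fell, with a median of −1.02, beside 17.3% of all genes that fell. Thbs1 (thrombospondin) had 0.22 and 0.2 CPM in a2i/L, against 12.2 and 8.04 CPM in S/L (−3.88 ± 0.24, limma adjusted p = 3.61e-15), and Tagln (transgelin) 0.18 and 0.17 CPM, against 7.44 and 6.61 CPM (−3.48 ± 0.21, limma adjusted p = 3.5e-15). Both were close to the limit of detection in a2i/L, so these differences are understated.

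Cyr61 and Ctgf, the standard YAP reporters, had 3.75 and 3.95 CPM and 4.88 and 4.92 CPM in a2i/L, against 12.9 and 12.3 CPM and 8.04 and 9.11 CPM in S/L (−1.59 ± 0.18 and −0.75 ± 0.18). Flna (filamin), an actin crosslinker, had 204 and 241 CPM in a2i/L and 469 and 435 CPM in S/L (−1.02 ± 0.18), and Srf itself fell by 0.67. The 4 members that did not pass were Tagln2, Anxa1, Tpm2 and Cnn1. In the direct comparison with 2i/L, 4 of the 19 were higher and 7 lower in a2i/L, beside 11.8% and 23.9% of all genes. Tagln, at 0.09 and 0.07 CPM in 2i/L, did not pass there (limma adjusted p = 0.453).

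Basement membrane genes were lower too. Of 17 primitive endoderm and basement membrane genes measured, 0 rose and 9 fell; with TMM scaling 1 rose. Col4a1, the network-forming collagen, had 6.88 and 7.03 CPM in a2i/L, against 50.9 and 39.9 CPM in S/L (−2.61 ± 0.21, limma adjusted p = 3.94e-12), Lamb1, a laminin chain, 29.7 and 39.5 CPM, against 126 and 111 CPM (−1.77 ± 0.17), and Hspg2 (perlecan) 105 and 142 CPM, against 381 and 332 CPM (−1.53 ± 0.17). These are secreted proteins, whereas the lineage's transcription factors did not pass: Gata6 had 2 and 1.72 CPM in a2i/L and 1.73 and 1.41 CPM in S/L (limma adjusted p = 0.578), and Gata4 3.58 and 2.89 CPM and 2.94 and 2 CPM. The endocytic receptor gene Lrp2 had 1.96 and 3.75 CPM in a2i/L and 38.3 and 37.9 CPM in S/L (−3.58 ± 0.24), and Col18a1, outside the list, 25.5 and 34.7 CPM, against 236 and 236 CPM (−2.97 ± 0.16).

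Feeder cells are fibroblasts, and they too make matrix and contractile proteins. Of 21 measured markers, 1 rose and 8 fell, 4 without S/L J-34 and 4 without a2i/L J-35, and their summed level was 80.7 and 73.5 CPM in a2i/L, against 84.1 and 78.8 CPM in S/L, much of it from Vim (48.6 and 34.9 CPM in a2i/L and 36.8 and 36.8 CPM in S/L). Col1a1, a defining collagen, fell with the matrix genes, at 0.97 and 0.86 CPM in a2i/L and 3.34 and 2.65 CPM in S/L (−1.30 ± 0.21, limma adjusted p = 7.95e-06). Col3a1, Dcn and S100a4 were below 1 CPM in all 4 libraries: Col3a1 had 0.61 and 0.71 CPM in a2i/L and 0.52 and 0.7 CPM in S/L, and Dcn 0.43 and 0.14 CPM and 0 and 0.03 CPM, and S100a4 was listed at 0 in both a2i/L libraries. The part of fibroblasts in the falls was not tested. Pdgfrb, a receptor on the same list, rose, with 10.8 and 17.3 CPM in a2i/L and 3.14 and 2.68 CPM in S/L (2.06 ± 0.25).

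Cell adhesion genes divided. Of 25 measured, 6 rose and 8 fell. Desmosome genes were among the rises, with Dsp (desmoplakin) at 43.1 and 48.4 CPM in a2i/L and 17.6 and 12.7 CPM in S/L (1.58 ± 0.16, limma adjusted p = 1.12e-09), Pkp2 rising by 0.82 and Dsg2 by 0.69. The integrin gene Itga9 fell by 1.97 and Jup (plakoglobin), which links cadherins to the cytoskeleton, by 0.98. Cdh1, the E-cadherin gene, had 203 and 262 CPM in a2i/L and 201 and 183 CPM in S/L and did not pass (limma adjusted p = 0.197).

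The mesoderm, neural and trophoblast lists each moved in both directions. Of 4 mesoderm genes measured 2 rose (1 without a2i/L J-35) and 1 fell; Eomes had 15.9 and 14.01 CPM in a2i/L and 3.43 and 2.65 CPM in S/L (2.13 ± 0.20), and Fgf17 fell by 2.02. Of 11 neural genes 1 rose and 4 fell: Nes had 6.23 and 4.72 CPM in a2i/L and 2.31 and 1.64 CPM in S/L (1.27 ± 0.22), and Tubb3, the neuronal tubulin, 3.24 and 3.09 CPM, against 14.6 and 18.2 CPM (−2.19 ± 0.26). Of 8 trophoblast genes 3 rose and 3 fell. Elf3, an epithelial ETS factor, was among the 15 largest rises, with 94.5 and 123 CPM in a2i/L and 10.6 and 9.92 CPM in S/L (3.33 ± 0.16, limma adjusted p = 8.35e-18), and Tfap2c had 54.9 and 54.5 CPM, against 18.8 and 19.4 CPM (limma adjusted p = 8.72e-10). Krt8 and Krt18, which pair in simple epithelia, fell by 1.56 and 1.06.

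Cyclins D1 and E1 fell, while cyclin E2 and several cell-cycle inhibitors rose. Of 15 cell-cycle regulators measured, 4 rose and 8 fell, beside 10.7% and 17.3% of all genes, with a median of −0.60. Ccnd1 (cyclin D1) had 17.6 and 15.4 CPM in a2i/L and 31.7 and 35.4 CPM in S/L (limma adjusted p = 0.000101), and Ccne1 (cyclin E1) 38.1 and 33.97 CPM, against 76.8 and 87.3 CPM (−1.17 ± 0.17, limma adjusted p = 1.95e-06). Ccne2 (cyclin E2) went the other way, with 12.1 and 9.38 CPM in a2i/L and 6.6 and 5.7 CPM in S/L (0.75 ± 0.19, limma adjusted p = 0.0026). The inhibitors Cdkn1b and Cdkn2a rose by 0.85 and 1.26, whereas the inhibitor Cdkn1c, described above, fell. Cdkn1a (p21), counted with the p53 targets, had 24.2 and 21.2 CPM in a2i/L and 8.79 and 6.64 CPM in S/L (1.51 ± 0.19, limma adjusted p = 6.26e-08). Of the 17 p53 targets 2 rose and 3 fell, close to the shares of all genes (10.7% and 17.3%). Mdm2, at 75.2 and 81.4 CPM and 97.9 and 71.4 CPM, did not pass (limma adjusted p = 0.708).

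Few genes of housekeeping groups passed. Of 39 ribosomal protein genes 0 passed in either direction in limma, and 0 at an unadjusted p below 0.05 (3 were higher with TMM scaling), and of 31 oxidative phosphorylation genes 1 rose and 2 fell, beside the 27.9% of all genes that passed; with TMM scaling these were 5 and 5. Sterol synthesis genes were called higher in 9 of 23 cases and lower in 1, led by Stard4 (1.43 ± 0.18) and Insig1, at 118 and 117 CPM in a2i/L and 46.98 and 53.4 CPM in S/L (1.22 ± 0.17), but without S/L J-34 2 rose, and without a2i/L J-34 or a2i/L J-35 4.

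**Figure D5:**
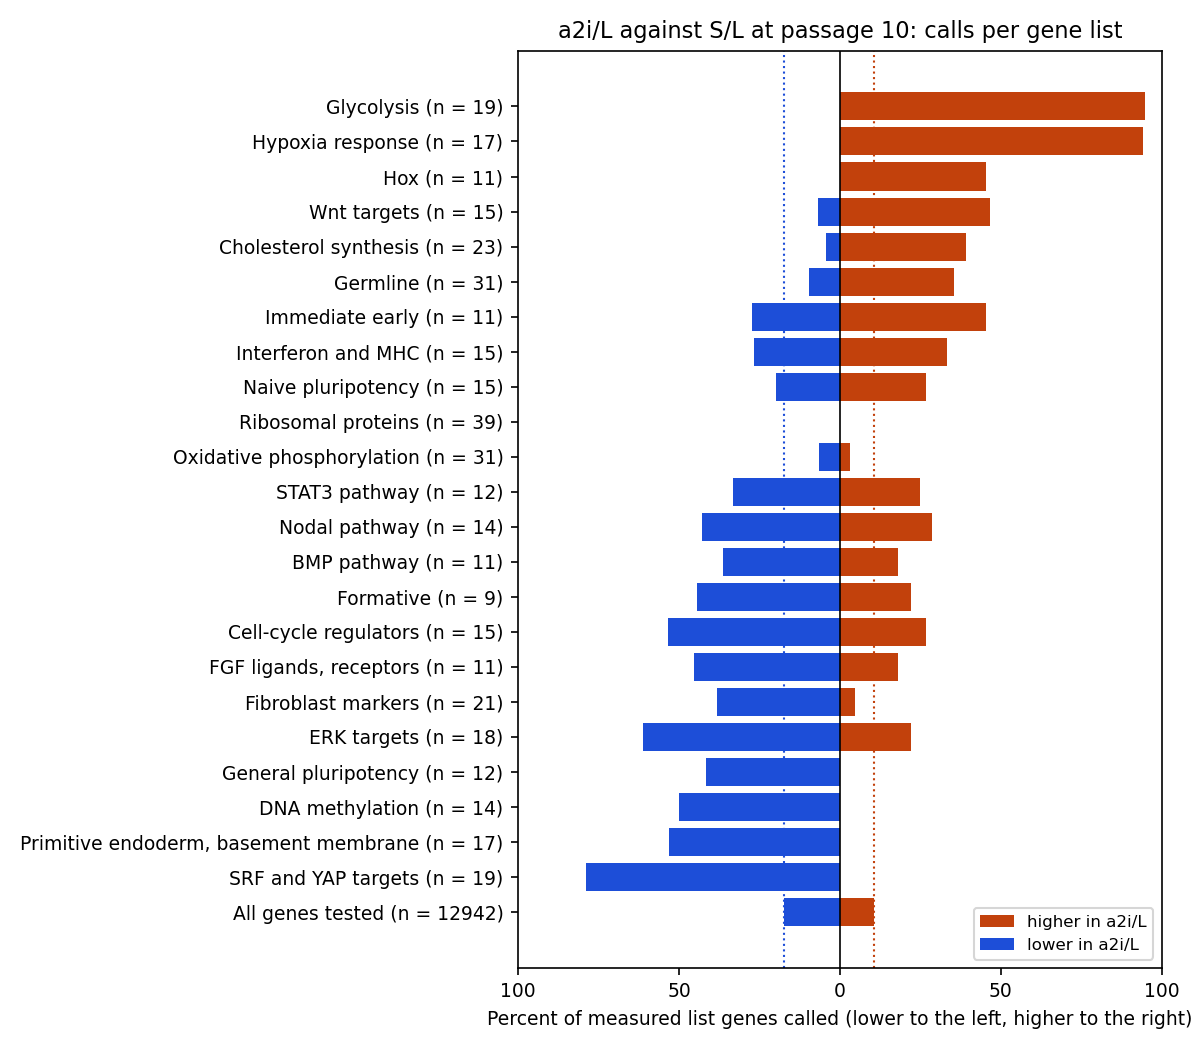
Percent of the measured genes of each list (n in brackets) that limma called higher in a2i/L (orange, to the right) or lower (blue, to the left), with all 12942 genes tested as the bottom bar and as dotted lines (10.7% and 17.3%). Hypoxia response and glycolysis reach 94.1% and 94.7% higher, and SRF and YAP targets 78.9% lower.

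The largest rises beyond these groups were in secreted and metabolic proteins. A2m, the gene for the protease inhibitor alpha-2-macroglobulin, was first of all genes, with 73.3 and 81.1 CPM in a2i/L, against 0.86 and 1.9 CPM in S/L (5.42 ± 0.18, limma adjusted p = 1.16e-22). Igfbp4, which binds insulin-like growth factors, had 45.1 and 51.1 CPM in a2i/L and 1.1 and 1.35 CPM in S/L (4.82 ± 0.22), and Pygl, the liver glycogen phosphorylase, 31.9 and 34.4 CPM, against 0.95 and 1.22 CPM (4.41 ± 0.23). None of the 3 had overlapping groups. A2m was likewise high in 2i/L (42.8 and 41.7 CPM) and in PKCi/L (88.2 and 62.96 CPM), where its difference from a2i/L did not pass (limma adjusted p = 0.876), whereas Pygl was higher in a2i/L than in 2i/L, at 11.3 and 12.1 CPM (1.47 ± 0.23), and than in PKCi/L, at 3.11 and 5.52 CPM (2.85 ± 0.23).

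Ppp1r3c and Ppp1r3b, which direct a phosphatase to glycogen, had 6.66 and 7.64 CPM and 10.7 and 14.4 CPM in a2i/L, against 0.23 and 0.13 CPM and 0.78 and 0.6 CPM in S/L (3.49 ± 0.22 and 3.44 ± 0.23). Other members of the top 15 were Grin1, an NMDA receptor subunit (3.42 ± 0.24), Slit2, a secreted guidance cue (3.13 ± 0.21), Rab39, a small GTPase (3.10 ± 0.22), and 2510009E07Rik (3.19 ± 0.24). Among the 15 largest falls not yet described, Spna1, the erythroid alpha-spectrin, had 0.2 and 0.26 CPM in a2i/L and 6.8 and 7.5 CPM in S/L (−3.39 ± 0.27). Grhl2, an epithelial transcription factor, had 0.31 and 0.77 CPM, against 6.98 and 10.3 CPM (−3.15 ± 0.25), and Enpp3, a nucleotide-cleaving surface enzyme, 2.77 and 2.34 CPM, against 23.9 and 28.4 CPM (−3.12 ± 0.22). Crmp1, Htra1 and Pla2g7 were also in that group, with Htra1, a secreted protease, at 2.77 and 5.2 CPM in a2i/L and 29.02 and 28.9 CPM in S/L (−2.77 ± 0.19).

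Comparison with the other inhibitor media showed where a2i/L differed from them. The contrasts with S/L share the S/L libraries, so the media were set against a2i/L directly. Over 2i/L, 1523 genes were higher (11.8%) and 3095 lower (23.9%) in a2i/L; over PKCi/L, 2777 were higher (21.5%) and 1309 lower (10.1%). With TMM scaling, the genes higher than in 2i/L numbered 2744 and those lower than in PKCi/L 2570.

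Of the 17 hypoxia genes, 10 were higher and 2, Car12 and Kdm3a, lower in a2i/L than in 2i/L. Against PKCi/L, 11 were higher and 0 lower in a2i/L. In all, 7 (41.2%) were higher than in both media, beside 4.78% of all genes. Such shares were not particular to hypoxia genes, with 38.7% in the germline list and 32% in the adhesion list. Ndrg1 had 60.8 and 64.1 CPM in a2i/L, 17.1 and 22.5 CPM in 2i/L (1.65 ± 0.20, limma adjusted p = 4.21e-08) and 35.1 and 31.9 CPM in PKCi/L (0.89 ± 0.20, limma adjusted p = 0.000836). Bnip3, at 164 and 149 CPM in a2i/L, had 76.2 and 85.8 CPM in 2i/L (0.94 ± 0.22, limma adjusted p = 0.000977) and 127 and 124 CPM in PKCi/L, where the difference did not pass (limma adjusted p = 0.31). Glycolysis genes were higher than in 2i/L in 6 of 19 cases and than in PKCi/L in 3, and lower in 0.

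Hox gene counts also differed between the comparisons. Of 11 measured, 5 rose in a2i/L over S/L, but 0 were higher and 8 lower than in 2i/L, and 7 were higher and 0 lower than in PKCi/L. Only genes above 1 CPM in at least 3 libraries are listed. Hoxa7, Hoxa9, Hoxa10 and Hoxd9 exceeded 1 CPM in 2i/L and not in a2i/L, S/L or PKCi/L at passage 10. Being listed thus favoured a lower call against 2i/L. Hoxc4 and Hoxb13 exceeded 1 CPM in a2i/L and 2i/L and not in S/L or PKCi/L at passage 10. For such genes, being listed favoured a higher call over S/L and PKCi/L. No conclusion is drawn from any of these Hox counts. Hoxb13 had 3.37 and 3.55 CPM in a2i/L and 0.06 and 0.21 CPM in S/L (2.65 ± 0.26, limma adjusted p = 5.89e-10), and its difference from 2i/L did not pass (limma adjusted p = 0.0832). Stra8, with 0.59 and 0.76 CPM in PKCi/L, was among the 5 genes that exceeded PKCi/L most (4.06 ± 0.23), together with Cdx1, Dmgdh, Irf8 and Calb2. Formative genes were lower than in PKCi/L in 8 of 9 cases and higher in 0, beside 10.1% and 21.5% of all genes.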

How the data were processed

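RNA from SSEA1-sorted mouse ESCs was depleted of ribosomal RNA and sequenced as directional paired-end libraries, per the labels' protocols. The values are CPM that the authors deposited as 1 table of 12942 genes for 19 libraries; per the submitters' processing notes the builds were NCBIM37 and mm9, and the tools were edgeR 3.8.6, HTSeq 0.6.0, STAR 2.3.0, SAMtools 0.1.18.0 and Picard 1.100, and the counting settings are not given in the sources used here. Every listed gene exceeds 1 CPM in at least 3 libraries, and the 12942 genes hold 443796 to 454609 CPM in the 4 libraries compared, so that part of each library lies outside the table.

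CPM plus 0.5 was log2-transformed and fitted with limma 3.58.1 (R 4.3.3) over all 19 libraries in 8 groups, with 11 residual degrees of freedom, a mean-variance trend, 2-sided tests and Benjamini-Hochberg adjustment over all genes; a filter of 1 CPM in 2 libraries removed none. Counts were not recovered from the CPM steps, which gave depth only, so no count test was run. Alternatives were other pseudocounts, filters, scaling by trimmed means (TMM), fewer libraries in the fit, the line as a block and each library left out. Samples of the same line pair by design, and their deviations from group means correlated at r = −0.06 between a2i/L and S/L over 12942 genes, 0.16 between a2i/L and 2i/L and −0.01 between 2i/L and S/L. Figures used Python 3.11.15, numpy 2.4.6, pandas 2.3.3 and matplotlib 3.10.9.

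The genes and lists were chosen with earlier results of these data known. Genes named are the 15 largest rises and falls with the same sign in both lines and at least 1 CPM in the higher group, up to 4 called genes per list, the 5 largest on each side against 2i/L and PKCi/L, and a panel of known genes; other list members were added as examples after their values were seen, and a few genes that the rule names are not reported here.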

Additional observations from a re-analysis of the deposited data

Results flagged for a closer look

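With 2 libraries per group no test for a single deviating library applies. Among the 167 genes named by rule, 4 had differences of opposite sign in the lines, each with only 1 library per line and medium, and the difference between lines was not tested. Sox2 differed by 0.11 in J-34 and −0.11 in J-35, on the log2(CPM + 0.5) scale, a2i/L minus S/L. Dppa3, an oocyte and germ cell factor, differed by 0.34 in J-34 and −0.11 in J-35. Otx2 differed by 0.60 in J-34 and −0.11 in J-35. Dnmt1 differed by −0.15 in J-34 and 0.12 in J-35. None of the 4 passed the limma test of a2i/L against S/L.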

How the results depend on the processing

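Of the genes called both with and without a changed setting, none turned its direction in a2i/L against S/L. The counts moved by over 1.5 times as follows. Genes higher in a2i/L than in S/L (1381) numbered 2423 with TMM scaling, 821 with a mean of at least 5 CPM, where 8856 genes were tested, 455 at 2-fold or more, and 862 to 1069 when 1 library was left out (862 without a2i/L J-35, 902 without S/L J-34). Genes lower (2236) numbered 1474 with at least 5 CPM, 552 at 2-fold or more and 1402 to 1468 when any of the 4 libraries was left out. Over 2i/L, higher genes (1523) numbered 2744 with TMM, 822 with at least 5 CPM, 582 at 2-fold or more and 982 (without 2i/L J-34) to 1176 with 1 library out; lower genes (3095) numbered 1977 with at least 5 CPM, 986 at 2-fold or more and 2083 to 2266. Over PKCi/L, higher genes (2777) numbered 1688 with at least 5 CPM, 962 at 2-fold or more, and 1728 (without a2i/L J-35) to 2275 with 1 library out; lower genes (1309) numbered 2570 with TMM, 335 at 2-fold or more, and 637 (without PKCi/L J-34) to 1362, with 752 without a2i/L J-35. Fewer genes were tested at 5 CPM; for the other settings the cause was not tested. The lowest chromosome median of J-34 was −0.14 over genes of at least 1 CPM and −0.13 at 50 CPM; the highest was 0.29 at 50 CPM, and in J-35 it was −0.026 at 1 CPM and 0.0931 at 50 CPM. With the ESC line as a replicate block, 1401 genes were higher and 2271 lower (1416 and 2293 with the line taken from the growth label), and among the 167 named genes the block changed the call of H19 alone (−0.67, adjusted p = 0.0348 and 0.0392). Pseudocounts of 0.1 and 1 ended the calls of 3 and 1 named genes, TMM scaling of 2, and leaving out a library of 10 to 16.

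With 2 libraries per medium, a lone library left in a group is assumed to vary like the others. At these depths 1 CPM is 34.7 to 44.5 reads, which limits the precision for genes near or below that level.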

Other observations

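Glycogen genes were examined after Pygl, Ppp1r3c and Ppp1r3b were seen among the largest rises, so this set was chosen after its values were seen. Of 19 measured genes of glycogen handling, 8 rose and 0 fell in a2i/L over S/L, beside 10.7% and 17.3% of all genes, and the count was the same with TMM scaling and without any 1 of the 4 libraries; it was 4 of 12 among genes averaging 5 CPM or more. Pgm2, which interconverts glucose phosphates, had 114 and 96.8 CPM in a2i/L and 17.9 and 24.6 CPM in S/L (limma adjusted p = 9.9e-11). Gbe1, the branching enzyme, had 7.2 and 5.63 CPM in a2i/L and 1.1 and 1.77 CPM in S/L (1.85 ± 0.21). Gys1, the muscle-type glycogen synthase, had 49.8 and 57.2 CPM in a2i/L and 48.4 and 55.6 CPM in S/L and did not pass (limma adjusted p = 0.899), so breakdown, branching and targeting genes rose while the synthase gene was not called.

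Desaturases of fatty acids rose while the synthase did not pass, in a set of 9 genes, also chosen after its values were seen, of which 5 rose and 0 fell. Scd1, which puts the first double bond into saturated fatty acids, had 230.4 and 316 CPM in a2i/L and 38.9 and 40.1 CPM in S/L (2.76 ± 0.17, limma adjusted p = 2.48e-15), and its relative Scd2 548 and 636 CPM, against 143 and 140.0 CPM (2.06 ± 0.17). Fads1 and Fads2 rose by 0.92 and 0.88, and Fasn, at 212 and 245 CPM in a2i/L and 187 and 200.2 CPM in S/L, was not called (limma adjusted p = 0.325). Annexin A2 and its binding partner moved apart: Anxa2 had 62.4 and 53.3 CPM in a2i/L and 6.63 and 7.18 CPM in S/L (2.98 ± 0.16, limma adjusted p = 4.74e-17), whereas S100a10 had 3.62 and 3.32 CPM in a2i/L and 15.5 and 18.6 CPM in S/L (−2.14 ± 0.17, limma adjusted p = 3.2e-12).

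Genes of the HIF system itself were again a set chosen after its values were seen. This set left out Egln1 and Egln3, which rose and were counted with the hypoxia genes. Of its 6 measured genes, 1 rose and 1 fell, too few to set apart from the 10.7% and 17.3% of all genes. The fall was that of Egln2. Hif1a had 71.5 and 82.7 CPM in a2i/L and 82.2 and 80 CPM in S/L (limma adjusted p = 0.773). Vhl, whose product removes HIF, had 25.9 and 30.9 CPM in a2i/L and 13.9 and 16.1 CPM in S/L (0.89 ± 0.16, limma adjusted p = 4.87e-05). Epas1 and Arnt did not pass. The class I histocompatibility gene H2-K1 had 31.1 and 25.9 CPM in a2i/L and 7.78 and 7.7 CPM in S/L (1.81 ± 0.18), while B2m, which encodes the shared light chain, had 8.14 and 7.81 CPM in a2i/L and 12.3 and 14.8 CPM in S/L (−0.72 ± 0.18, a call lost without S/L J-35).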
